A study of Homo sapiens with 40 samples.

Results

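The genes described here carry symbols that begin with GAGE, XAGE, PAGE, SPANX, CT45A, CT47, CTAG or CSAG, or with SSX and a number, and they make up 91 of the 60664 genes in the count table. Of the 91 genes, 77 belong to 9 cancer-testis families, and all 77 lie on chromosome X: 14 CT47, 13 GAGE, 11 SPANX, 11 SSX, 10 CT45A, 6 PAGE, 5 XAGE, 4 CSAG and 3 CTAG genes. The other 14 share only the prefix (12 CTAGE genes, SSX2IP and the pseudogene SSX2IPP1) and are kept out of every family sum. The 11 SPANX genes include SPANXA2-OT1, a transcript of 7463 exonic bases whose span holds other SPANX genes, and it is kept in the SPANX sums. RNA was sequenced from 786-0, an established clear cell renal cell carcinoma line, in a SETD2 knockout form (KO) and the form labelled SETD2 wild type (WT); SETD2 is the histone methyltransferase that places trimethylation on lysine 36 of histone H3. In each genotype, cells received DAC+BMN, DAC or BMN and were collected at days 5, 16 and 26, or were collected untreated at day 0. DAC is decitabine, a cytidine analogue that traps DNA methyltransferases on DNA, given at 100 nM; BMN is BMN673 (talazoparib), an inhibitor of poly(ADP-ribose) polymerase, given at 10 nM; and the combination holds both doses. Each of the 20 groups has 2 libraries, 40 in all. The labels give neither the dosing schedule nor how the knockout was made or how many clones it represents, they do not say that replicates were separate cultures, and no group is untreated at a later day. P-values therefore measure the spread between libraries, which may be technical, and a difference between the lines is a difference between these KO and WT cells.

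Cancer-testis genes are expressed in germ cells of the testis and are silent in nearly all other adult tissues. In somatic cells their promoters are usually methylated at CG dinucleotides, and agents that remove DNA methylation are known to switch many of them on. The families on chromosome X arose by repeated duplication, so that neighbouring copies can be nearly identical in sequence. SPANX proteins are found in the nuclei of spermatids, SSX proteins are transcriptional repressors whose genes are fused to SS18 in synovial sarcoma, and CTAG2 (LAGE-1) is the closest relative of NY-ESO-1, an antigen encoded by CTAG1A and CTAG1B. GAGE, PAGE and XAGE proteins are small, related antigens that tumours can present to T cells. CT45A and CT47 genes lie in tandem arrays, and CSAG genes lie among the MAGEA genes.

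Libraries held 17833960 to 22631101 counts, and levels are given in CPM, a gene's counts scaled to a common TMM-adjusted library total. Most markers of the line were present: PAX8, a renal transcription factor, was at 210 to 481 CPM and VIM at 2978 to 5430 CPM. Of the others listed for the line, CA9, a hypoxia target, was at 0 to 3.05 CPM and LRP2 at 0 to 0.0884 CPM. Of 6 testis and germ cell markers, TNP1, PRM1 and PRM2 were at 0 in all 40 libraries, and ACR, DDX4 and SYCP3 ran from 0 to 0.140, 0.743 and 1.86 CPM. SETD2 itself had a median of 139.0 CPM over the 20 KO libraries and 139.4 CPM over the 20 WT libraries, and its difference between the untreated lines did not pass the test (log2 -0.13, adjusted p = 0.2, edgeR's quasi-likelihood test with Benjamini-Hochberg adjustment over all genes), so its level does not check the genotype label. All comparisons below come from that test, fitted over all 40 libraries and 22527 genes, and a gene is said to have risen or fallen where its adjusted p was below 0.05.

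The promoter windows of 6 members are shown because the results turn on 5 of them, which were among the most abundant members of SPANX, SSX, GAGE, PAGE and CSAG under DAC, and because 1, PAGE4, stayed near 0 counts beside its relatives. Each window runs from 250 bases before to 50 bases after the annotated start, read on the gene's strand from RefSeq sequence (GRCh38.p14), and CG dinucleotides, the sites that DNA methyltransferases methylate, are in capitals. The windows are, in the order printed, SPANXB1 at chrX:141002344-141002643 (plus strand, 9 CG), SSX1 at chrX:48255142-48255441 (plus strand, 5 CG), GAGE2A at chrX:49589246-49589545 (plus strand, 13 CG), PAGE5 at chrX:55220096-55220395 (plus strand, 10 CG), CSAG1 at chrX:152733672-152733971 (minus strand, 16 CG) and PAGE4 at chrX:49829010-49829309 (plus strand, 4 CG).
SPANXB1: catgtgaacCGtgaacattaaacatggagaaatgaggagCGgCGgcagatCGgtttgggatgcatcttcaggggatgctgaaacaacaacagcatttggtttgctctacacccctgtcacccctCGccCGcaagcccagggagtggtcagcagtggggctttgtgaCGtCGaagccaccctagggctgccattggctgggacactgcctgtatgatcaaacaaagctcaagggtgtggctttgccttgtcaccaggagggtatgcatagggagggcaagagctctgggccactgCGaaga
SSX1: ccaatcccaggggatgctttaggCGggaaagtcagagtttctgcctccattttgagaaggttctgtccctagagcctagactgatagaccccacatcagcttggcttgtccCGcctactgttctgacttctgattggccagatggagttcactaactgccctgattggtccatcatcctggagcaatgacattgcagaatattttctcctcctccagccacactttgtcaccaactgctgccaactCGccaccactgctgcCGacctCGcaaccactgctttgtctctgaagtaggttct
GAGE2A: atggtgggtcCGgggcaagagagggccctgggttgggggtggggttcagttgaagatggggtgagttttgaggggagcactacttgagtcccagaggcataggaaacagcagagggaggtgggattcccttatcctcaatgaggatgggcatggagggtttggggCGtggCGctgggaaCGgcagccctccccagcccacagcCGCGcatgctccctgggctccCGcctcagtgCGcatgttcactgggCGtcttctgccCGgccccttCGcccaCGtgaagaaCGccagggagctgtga
PAGE5: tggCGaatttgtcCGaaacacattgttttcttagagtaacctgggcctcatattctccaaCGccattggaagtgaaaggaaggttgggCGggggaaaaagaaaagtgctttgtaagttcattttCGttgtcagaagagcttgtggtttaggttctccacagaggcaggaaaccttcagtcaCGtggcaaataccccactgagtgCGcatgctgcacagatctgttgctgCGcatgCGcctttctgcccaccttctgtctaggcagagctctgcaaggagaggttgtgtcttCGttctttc
CSAG1: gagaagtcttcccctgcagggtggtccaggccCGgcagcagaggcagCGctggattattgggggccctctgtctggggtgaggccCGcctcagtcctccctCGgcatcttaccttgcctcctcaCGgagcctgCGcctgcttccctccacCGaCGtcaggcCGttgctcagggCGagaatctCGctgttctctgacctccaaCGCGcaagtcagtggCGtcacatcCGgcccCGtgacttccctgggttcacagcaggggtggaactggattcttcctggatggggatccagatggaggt
PAGE4: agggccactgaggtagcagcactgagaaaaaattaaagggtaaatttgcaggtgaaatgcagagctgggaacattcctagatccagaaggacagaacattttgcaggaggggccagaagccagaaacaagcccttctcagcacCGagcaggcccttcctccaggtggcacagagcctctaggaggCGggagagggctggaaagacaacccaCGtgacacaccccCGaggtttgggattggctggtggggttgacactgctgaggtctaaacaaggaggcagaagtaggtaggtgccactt
Over the 42 family members with a window, the CG count had a median of 10 and ran from 1 to 20, against a median of 14 over the 35116 windows of the table and 14 over the 1236 windows on chromosome X. At least 1 CG was found in 96% of all windows. Methylation itself was not measured in these libraries.

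Members with little sequence of their own mostly had few or no counts. Reads had to map with a quality of at least 20, so a read that fits several copies equally well was dropped rather than shared, and a family sum does not bring it back. Among the 77 family genes, 30 had fewer than 10% of their 100-base transcript windows free of a match in another gene, and 28 of those 30 had at most 9 counts in every library. Of the 32 genes with at least 50% unique windows, 11 had at most 9 counts in every library. In all, 23 family genes had 0 counts in all 40 libraries: 12 of 14 CT47 genes, 5 of 13 GAGE genes, 4 of 10 CT45A genes and 2 of 3 CTAG genes. CTAG1A and CTAG1B, the near-identical pair that encodes NY-ESO-1, are among these 23, with 14.7% or 15.1% unique windows, and CTAG2 has 75.5%. A count of 0 for such genes is therefore not a measure of their expression.

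**Figure D1:**
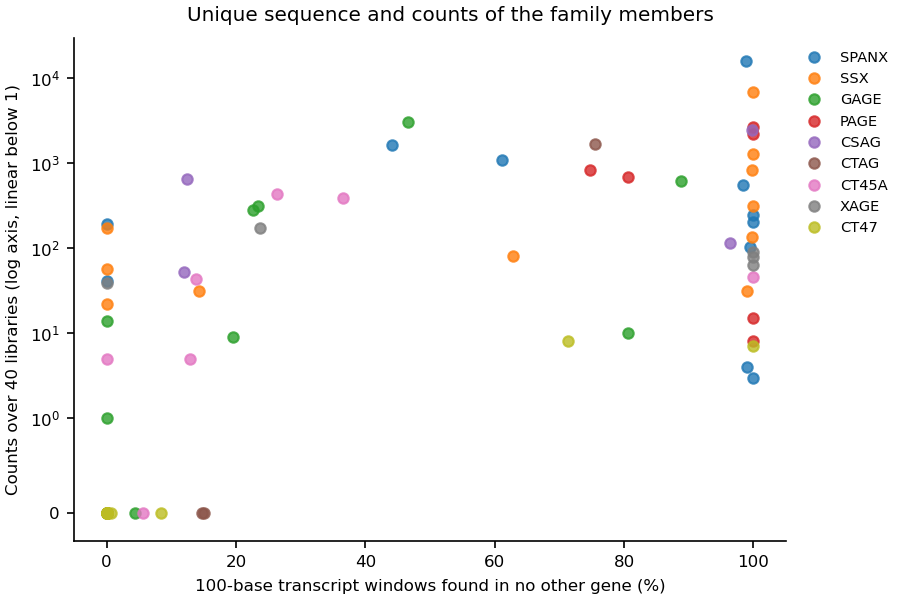
Share of 100-base transcript windows found in no other gene (x axis, %) against the counts summed over 40 libraries (y axis, log scale, linear below 1) for the 77 family genes, coloured by family. Of the 30 genes below 10% unique windows, 28 had at most 9 counts in every library, and the 2 genes with the most counts, SPANXB1 and SSX1, lie at 98.9% and 100% unique windows.

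Untreated cells held little RNA of these families. The sum over all 77 genes was 1.46 and 2.20 CPM in the KO control libraries, against 1.97 and 2.33 CPM in the WT control libraries. GAGE, CTAG and CT47 genes had 0 counts in all 4 untreated libraries, which puts each sum below 3 counts per library. SPANX genes summed to 0.917 and 1.38 CPM in KO controls, against 0.806 and 0.777 CPM in WT controls. SSX genes summed to 0.432 and 0.716 CPM in KO controls, against 0.504 and 1.24 CPM in WT controls. SPANX and SSX together made up most of the family RNA before treatment, and for each of them the ranges of both lines lay close together or overlapped.

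Of the 91 genes, 32 passed the low-count filter and were tested: 27 family genes, 4 CTAGE genes and SSX2IP. SPANXN1 was the only family gene that would have passed on the untreated libraries alone. The others entered the test through treated libraries, so a difference from control was built into their selection, and the counts of risen members below describe them and do not support more than that. In untreated cells 2 of the 32 differed between the lines, with 27.2% of all genes tested differing. SPANXN1, a member of the SPANX-N branch, was higher in KO cells, with 0.648 and 0.661 CPM in KO controls against 0.151 and 0.104 CPM in WT controls (log2 2.30 ± 0.56 SE, adjusted p = 0.0018). The libraries of the lines did not overlap. PAGE1 had 0 counts in KO controls and 6 counts in WT controls (adjusted p = 0.024). The call was lost without KO control replicate 1, KO control replicate 2 or WT control replicate 1, and with no low-count filter (adjusted p = 0.059).

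DAC was followed by high levels of these families in both lines, and at least 1 member of 8 of the 9 families rose in each; CT47 was the exception. At day 5 the sum over the 77 genes was 112.9 and 104.9 CPM in DAC-treated KO cells, against 1.46 and 2.20 CPM in KO controls. In WT cells it was 95.7 and 93.0 CPM under DAC, against 1.97 and 2.33 CPM in controls. No treated library overlapped a control library. Bulk RNA cannot tell whether more cells switched a gene on or each cell made more RNA of it. At day 5, 26 of the 32 tested members rose in KO cells, where 19.5% of all genes rose and 35.4% changed in either direction, and 23 of 32 rose in WT cells, where 15.6% of all genes rose. At day 16 the counts were 24 in KO cells (19.9% of all genes) and 21 in WT cells (18.6%, with 33.5% changed in either direction), and at day 26 they were 21 in KO cells (26.3%) and 22 in WT cells (18.7%). None of the 32 fell at any of the 3 days in either line. The 3 days of a line share the same 2 control libraries, so they are not independent repeats.

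SPANX gave the largest family sum under DAC at each day in both lines. At day 5 it was 57.5 and 54.0 CPM in DAC-treated KO cells, against 0.917 and 1.38 CPM in KO controls, a ratio of 48.6 (95% counting interval 35.9 to 67.7). In WT cells it was 28.7 and 31.0 CPM under DAC, against 0.806 and 0.777 CPM in controls, a ratio of 37.7 (26.4 to 55.8). These intervals, like all those given for ratios here, cover counting error only. Most of the sum came from SPANXB1, whose transcript is 98.9% unique. SPANXB1 had 48.2 and 43.7 CPM in KO cells at day 5 of DAC, against 0.216 and 0.110 CPM in KO controls (log2 8.08 ± 0.25, adjusted p = 2.9e-23). In WT cells SPANXB1 had 23.6 and 26.5 CPM under DAC, against 0 and 0.104 CPM in controls (log2 8.77 ± 0.31, adjusted p = 2.2e-21); the WT controls held only 2 counts, so the fold is loosely bounded. Per kilobase of exon, SPANXB1 reached 98.6 CPM per kb in KO cells and 53.8 in WT cells at day 5 of DAC, the highest of the named members on that scale. For example, SSX1 was at 14.3 and 13.4, SPANXC at 9.8 and 5.8 and PAGE5 at 5.7 and 8.5, which is not a full ranking.

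The other SPANX genes reached lower levels than SPANXB1. SPANXA2-OT1 was 1 of 3 family genes that reached the filter's cut-off in 2 libraries without DAC, so it adds to the low SPANX sums there. SPANXC had 3.46 and 4.53 CPM in KO cells at day 5 of DAC, against 0 counts in KO controls, at least 24.4-fold higher when 3 counts per control library are taken as the floor. In WT cells SPANXC had 2.33 and 2.41 CPM, against 0 counts in controls, at least 15.5-fold higher. SPANXC has only 44.1% unique windows, so both levels are minima. SPANXN1, already present in untreated KO cells, had 1.48 and 1.49 CPM in KO cells at day 5 of DAC against 0.648 and 0.661 CPM in KO controls (log2 1.18 ± 0.38, adjusted p = 0.014), and the call was lost without KO control replicate 1 (0.076), KO control replicate 2 (0.068) or KO DAC day 5 replicate 2 (0.058), or with no low-count filter (0.067). SPANXN3 had 0.604 and 0.800 CPM in KO cells at day 5 of DAC, against 0.0540 and 0.110 CPM in KO controls (log2 3.01 ± 0.89, adjusted p = 0.0078), and the call was lost without KO control replicate 1 (0.09) or KO DAC day 5 replicate 2 (0.054). SPANXN2 had 4 counts and SPANXN4 had 3 counts over all 40 libraries, although at least 99% of the windows of each are unique.

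SSX was the next largest family at day 5. The SSX sum was 28.4 and 25.8 CPM in DAC-treated KO cells, against 0.432 and 0.716 CPM in KO controls, a ratio of 47.2 (30.7 to 76.6). In WT cells it was 24.0 and 23.5 CPM under DAC, against 0.504 and 1.24 CPM in controls, a ratio of 27.3 (19.4 to 39.6). SSX1, one of the genes fused in synovial sarcoma, had 18.4 and 16.7 CPM in KO cells at day 5 of DAC, against 0.108 and 0.496 CPM in KO controls (log2 5.84 ± 0.28, adjusted p = 3.3e-18). In WT cells SSX1 had 16.1 and 16.7 CPM under DAC, against 0.403 and 0.881 CPM in controls (log2 4.67 ± 0.24, adjusted p = 4.6e-17). The WT controls held 25 counts of SSX1 and the KO controls 11, so SSX1 was the family gene with the most counts before treatment in WT cells, as SPANXN1 with 24 was in KO cells. SSX3 had 4.78 and 5.76 CPM in KO cells at day 5 of DAC, against 1 count in KO controls, and 4.45 and 3.58 CPM in WT cells, against 0 counts in WT controls (at least 26.2-fold). SSX4 and SSX4B, which share all their sequence, stayed below the filter with 57 and 22 counts over all libraries.

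GAGE genes had 0 counts in every control. Their sum was 3.74 and 2.72 CPM in DAC-treated KO cells at day 5, at least 19.7-fold above the floor, and 6.52 and 6.83 CPM in WT cells, at least 43.5-fold. GAGE2A carried most of it, with 2.64 and 1.55 CPM in KO cells at day 5 of DAC and 3.93 and 3.85 CPM in WT cells. GAGE1, the member with the most unique sequence (88.7%), had 0.714 and 0.427 CPM in KO cells and 1.34 and 1.53 CPM in WT cells at that day. All 4 GAGE genes tested rose in both lines at each day, but at day 5 in KO cells the GAGE12J call was lost without KO control replicate 1 (adjusted p = 0.085), KO control replicate 2 (0.08) or KO DAC day 5 replicate 2 (0.18), and the GAGE12H call without KO control replicate 1 (0.059) or KO control replicate 2 (0.054). Of the other 9 GAGE genes, 5 had 0 counts throughout and none had more than 14 counts in all, and only 46.6% of the windows of GAGE2A are unique, so that the family level is a minimum.

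PAGE genes are the family that unique sequence serves best, with 74.7% to 100% unique windows. Their sum at day 5 of DAC was 10.1 and 10.4 CPM in KO cells, where the controls held 1 count, and 18.4 and 17.1 CPM in WT cells, a ratio to WT controls of 116 (52.9 to 316). PAGE5 had 4.62 and 3.95 CPM in KO cells, against 0 counts in KO controls (at least 26.2-fold), and 6.83 and 5.90 CPM in WT cells, against 0 counts in WT controls (at least 41.5-fold). PAGE1 had 2.91 and 3.52 CPM in KO cells, against 0 counts in KO controls (at least 19.7-fold), and 5.74 and 5.94 CPM in WT cells, against 0.252 and 0.0518 CPM in WT controls (log2 5.20 ± 0.37, adjusted p = 1.8e-12). All DAC-treated libraries lay above all controls for PAGE1 and PAGE5 in both lines. The family was not switched on as a whole: PAGE3 and PAGE4, both with 100% unique windows, had 15 and 8 counts over the 40 libraries, none of them in KO or WT controls.

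CTAG2 was the only CTAG gene with counts. It had 4.56 and 4.53 CPM in KO cells at day 5 of DAC, against 0 counts in KO controls (at least 27.8-fold), and 6.16 and 5.43 CPM in WT cells, against 0 counts in WT controls (at least 37.8-fold). CSAG1 had 6.04 and 4.48 CPM in KO cells at day 5 of DAC, against 1 count in KO controls (log2 7.29 ± 0.57, adjusted p = 5.8e-12). In WT cells CSAG1 had 6.21 and 4.83 CPM under DAC, against 0.252 and 0.155 CPM in controls (log2 4.71 ± 0.39, adjusted p = 4.1e-11). CSAG3, with 12.5% unique windows, had 1.21 and 0.693 CPM in KO cells at day 5 of DAC, against 0 counts in KO controls. In WT cells CSAG3 had 1.66 and 0.929 CPM under DAC, against 1 count in controls. For CSAG1 and CSAG3 all DAC-treated libraries lay above all controls in both lines.

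CT45A and XAGE sums were low at day 5, and CT47 genes did not reach the test. The CT45A sum was 0.549 and 0.800 CPM in KO cells and 2.22 and 1.49 CPM in WT cells at day 5 of DAC, and in WT cells it was 3.38 and 3.13 CPM at day 16 and 3.88 and 3.90 CPM at day 26. CT45A1 had 0.165 and 0.427 CPM in KO cells at day 5 of DAC, against 0 counts in KO controls, and 1.24 and 0.789 CPM in WT cells, against 0 counts in WT controls. CT45A10 had 0.275 and 0.320 CPM in KO cells at day 5, against 0 counts in KO controls, and 0.776 and 0.650 CPM in WT cells, against 0 counts in WT controls. XAGE1B had 0.110 and 0.480 CPM in KO cells at day 5, against 0 counts in KO controls (11 counts in the pair of DAC libraries, at least 1.8-fold), and the call in KO cells was lost without KO DAC day 5 replicate 2 (adjusted p = 0.14) or KO control replicate 1 (0.05 after rounding). XAGE1B had 0.672 and 0.557 CPM in WT cells at day 5, against 0 counts in WT controls (at least 4.01-fold). XAGE2, below the filter but 100% unique, had 2 counts in the DAC libraries of KO cells and 28 in those of WT cells, with 0 in the controls of both lines. The 14 CT47 genes had 15 counts in all, from CT47B1 and CT47C1.

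**Figure D2:**
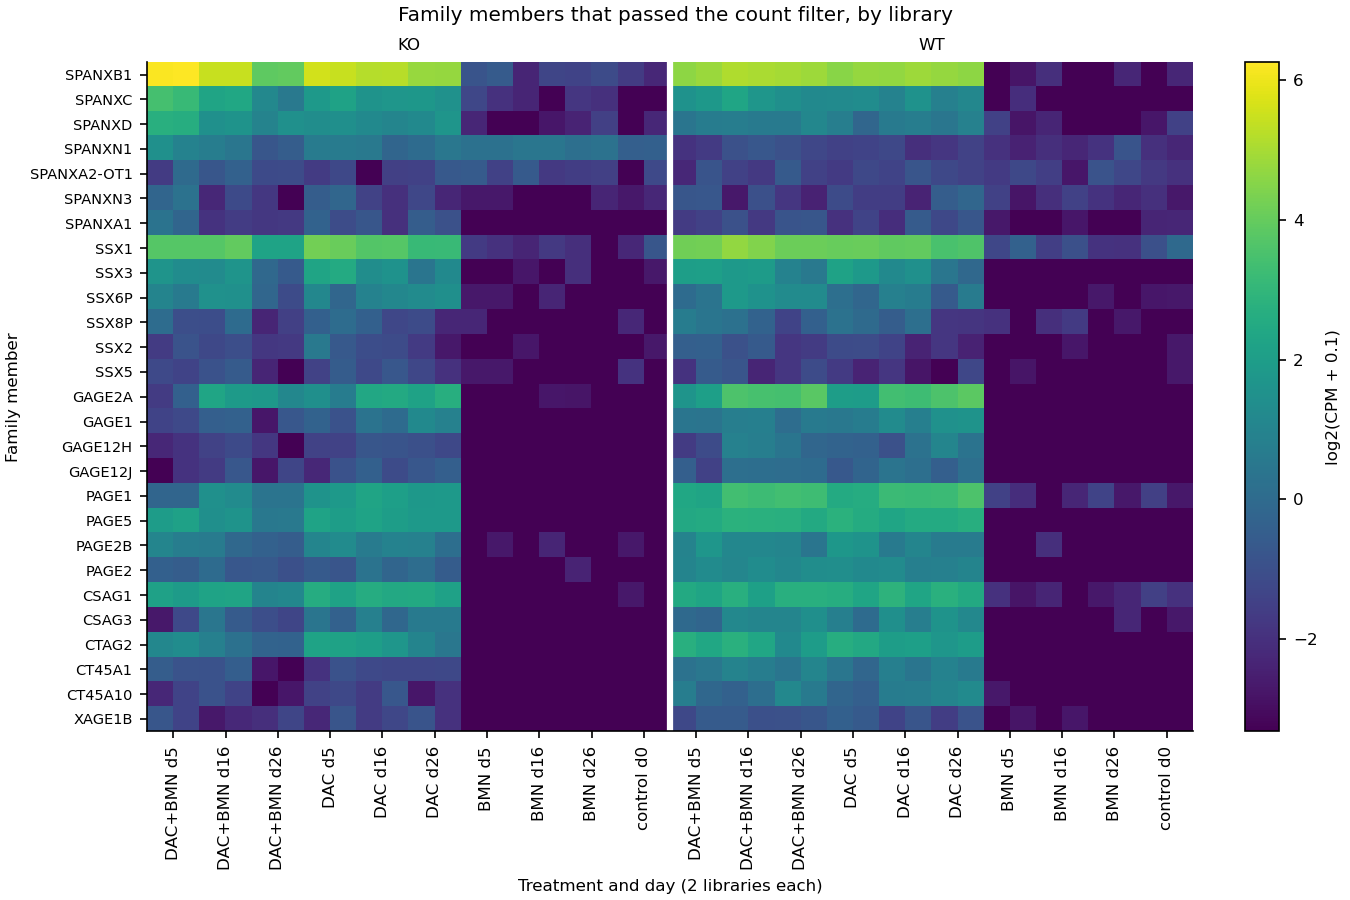
Level of each of the 27 tested family genes (rows, grouped by family) in each of the 40 libraries (columns, KO on the left and WT on the right, by treatment and day), as log2(CPM + 0.1) in colour. Libraries with DAC, alone or with BMN, are bright for SPANXB1, SSX1, GAGE2A, PAGE1, PAGE5, CSAG1 and CTAG2, and libraries with BMN alone resemble the controls; SPANXN1 is brighter in all KO libraries without DAC than in the WT libraries without DAC.

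Over the 3 days of DAC the families followed different courses. GAGE sums in WT cells were higher at each later day, with 6.52 and 6.83, 14.3 and 13.7, and 17.4 and 19.5 CPM at days 5, 16 and 26. In KO cells the GAGE sums were 3.74 and 2.72, 7.74 and 7.24, and 7.72 and 9.19 CPM at those days. GAGE2A rose between days 5 and 16 in KO cells (log2 1.37 ± 0.29, adjusted p = 0.00079) and in WT cells (log2 1.34 ± 0.24, adjusted p = 0.0002), and day 16 lay above day 5 in all libraries of both lines. SSX sums were lower at each later day in both lines: 28.4 and 25.8, 18.9 and 19.9, and 13.3 and 14.5 CPM at days 5, 16 and 26 in KO cells, and 24.0 and 23.5, 20.1 and 21.1, and 13.7 and 15.2 CPM in WT cells. SPANX sums at those days were 57.5 and 54.0, 43.7 and 43.7, and 35.1 and 34.9 CPM in KO cells, and 28.7 and 31.0, 30.2 and 34.8, and 31.5 and 30.5 CPM in WT cells. The ratio of day 26 to day 5 was 0.884 (0.762 to 1.03) for PAGE and 1.06 (0.885 to 1.27) for CSAG in KO cells, and 1.12 (1.02 to 1.24) for PAGE and 1.29 (1.11 to 1.51) for CSAG in WT cells.

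**Figure D3:**
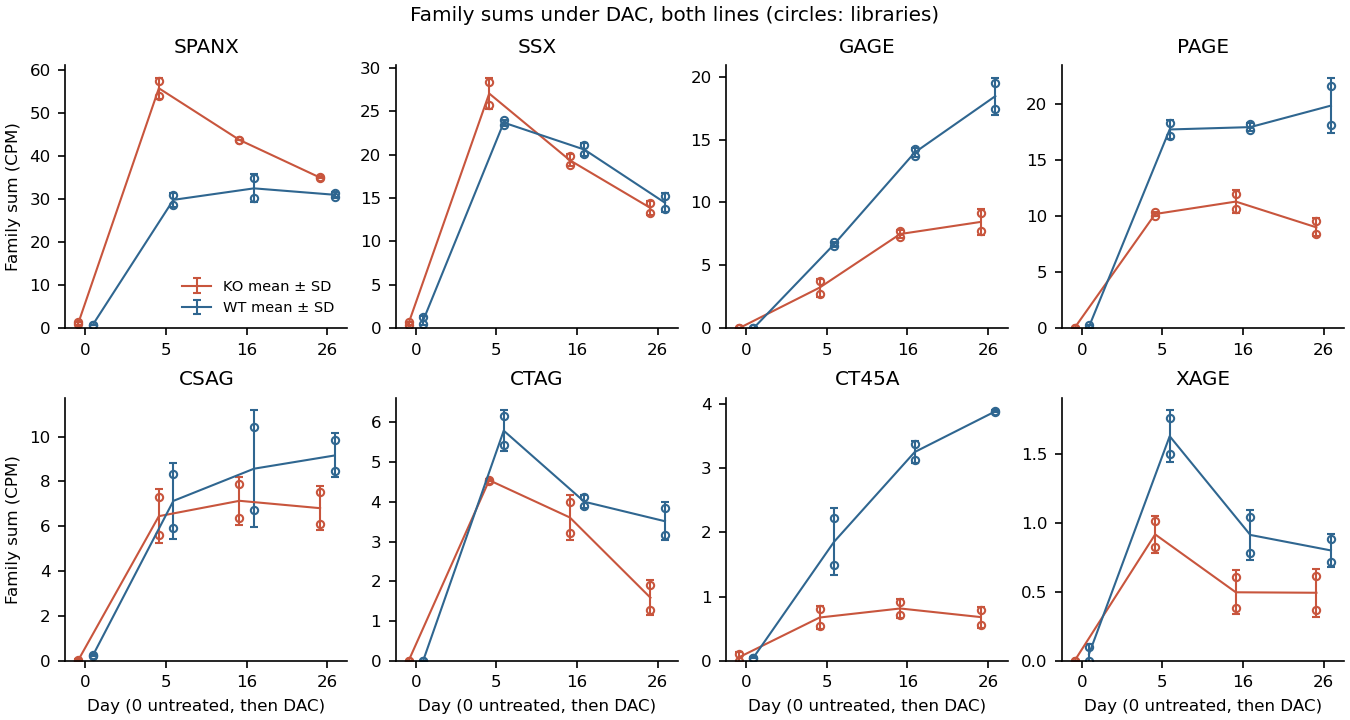
Family sums in CPM (y axis, linear, a separate scale for each family) in untreated cells (day 0) and at days 5, 16 and 26 of DAC (x axis) in KO and WT cells; circles are the 2 libraries of a group, lines join their means and bars are the SD. GAGE and CT45A rise to day 26 in WT cells, SSX and CTAG are highest at day 5 in both lines, and SPANX is higher in KO than in WT cells at day 5.

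Few single members passed the test between days. From day 5 to day 16 in KO cells 3 of 32 changed (GAGE2A up, SPANXB1 and SSX3 down), with 17.9% of all genes changed (8.29% up and 9.56% down), and in WT cells 2 of 32 changed (GAGE2A and PAGE1, both up), with 15.2% of all genes changed (7.93% up and 7.28% down). The SPANXB1 call in KO cells was marginal (log2 -0.32 ± 0.12, adjusted p = 0.049) and was lost on leaving out any one of its 4 libraries. It was also lost with no low-count filter (adjusted p = 0.074) and with a lane term (0.051). The PAGE1 call in WT cells (log2 0.63 ± 0.19, adjusted p = 0.024) was likewise lost without any of its 4 libraries (adjusted p = 0.099 to 0.15). SSX3 fell by 0.98 on the log2 scale in KO cells, a call lost without KO DAC day 5 replicate 2 (adjusted p = 0.12), KO DAC day 16 replicate 1 (0.13) or KO DAC day 16 replicate 2 (0.051). From day 16 to day 26 in KO cells 3 of 32 fell and none rose, with 12.4% of all genes falling. CTAG2 had 1.90 and 1.27 CPM at day 26 in KO cells, against 4.005 and 3.21 CPM at day 16 (log2 -1.18 ± 0.29, adjusted p = 0.004); without KO DAC day 26 replicate 2 the change was -0.95 with adjusted p = 0.068. SPANXB1 had 27.4 and 26.6 CPM at day 26 in KO cells, against 36.3 and 37.1 CPM at day 16 (log2 -0.44 ± 0.12, adjusted p = 0.0053). SSX1 had 8.69 and 8.87 CPM at day 26 in KO cells, against 12.9 and 13.2 CPM at day 16 (log2 -0.58 ± 0.16, adjusted p = 0.0081), and without KO DAC day 26 replicate 1 its adjusted p was 0.06. In WT cells 3 of 32 changed between days 16 and 26 (SSX3 and SSX8P fell and SPANXN3 rose), with 19.7% of all genes changed. SSX3 had 1.26 and 0.851 CPM at day 26 in WT cells, against 2.22 and 2.70 CPM at day 16 (log2 -1.22, adjusted p = 0.0095), and without WT DAC day 16 replicate 2 or WT DAC day 26 replicate 2 its adjusted p was 0.082 or 0.095. The SSX8P call (log2 -2.13, adjusted p = 0.037) was lost without WT DAC day 16 replicate 2 (0.24), WT DAC day 26 replicate 1 (0.13) or WT DAC day 26 replicate 2 (0.13), and when only the libraries compared were fitted (0.052). The SPANXN3 call (log2 2.07, adjusted p = 0.048) was lost without any 1 of its 4 libraries (0.082 to 0.31), with the replicate block (0.053), with no low-count filter (0.055), with RLE scaling (0.05 after rounding), with a lane term (0.054) and when only the libraries compared were fitted (0.073). In all these comparisons the share of members called was below the share of all genes called.

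KO and WT cells were then compared at the same days of DAC. Averaged over the 3 days, 17 of the 32 tested members differed (5 higher and 12 lower in KO cells), which is 53.1%, and 49.2% of all genes tested differed in that comparison. The total count is near the background and says nothing particular about these families. By direction, 37.5% of the members were lower in KO cells, beside 25.7% of all genes, and 15.6% were higher, beside 23.4% of all genes. The directions followed the families. The SPANX sum in KO cells was 1.86 times (95% counting interval 1.74 to 2.003) that in WT cells at day 5, 1.35 times (1.25 to 1.45) at day 16 and 1.13 times (1.05 to 1.22) at day 26. The GAGE sum in KO cells was 0.482 times (0.385 to 0.6001), 0.535 times (0.463 to 0.618) and 0.457 times (0.400 to 0.521) that in WT cells at the 3 days. PAGE ratios of KO over WT were 0.576, 0.628 and 0.453, and CT45A ratios were 0.369, 0.252 and 0.175. SSX ratios stayed near 1, at 1.14, 0.942 and 0.957.

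By gene, SPANXD (log2 0.82 ± 0.21, adjusted p = 0.0018), SPANXC (0.61 ± 0.17, adjusted p = 0.0033) and SPANXB1 (0.46 ± 0.07, adjusted p = 9.7e-07) were higher in KO cells over the days of DAC. SPANXN1 was higher by 2.28 ± 0.26 (adjusted p = 3.8e-09), close to its difference of 2.30 between the untreated lines. PAGE2 (-1.49 ± 0.22, adjusted p = 2.6e-06), PAGE1 (-1.17 ± 0.12, adjusted p = 1.6e-09) and GAGE2A (-1.01 ± 0.15, adjusted p = 1.5e-06) were lower in KO cells, as were CT45A10 (-2.51 ± 0.34, adjusted p = 4.8e-07) and CT45A1 (-2.09 ± 0.29, adjusted p = 9e-07). CT45A10 had 0.0514 and 0.159 CPM in KO cells at day 26 of DAC, against 1.92 and 2.28 CPM in WT cells. The lines did not overlap for PAGE1, PAGE2, CT45A1 and CT45A10 at any of the days. These differences are at matched treatment. The response to DAC itself, each line against its own controls and then KO minus WT, differed for 0 of the 32 members in edgeR's quasi-likelihood test and in DESeq2, with 3 below an unadjusted p of 0.05 and 8.82% of all genes called. With controls at or near 0 counts for most members, that difference of responses is poorly bounded, and the 0 does not show that the lines responded alike.

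BMN alone was followed by family sums far below those under DAC. The sum over the 77 genes was 2.4 to 3.2 CPM in BMN-treated KO cells, against 1.46 and 2.20 CPM in KO controls, and 1.6 to 2.4 CPM in BMN-treated WT cells, against 1.97 and 2.33 CPM in WT controls. In WT cells 0 of the 32 members passed edgeR's quasi-likelihood test over the 3 days (5 below an unadjusted p of 0.05, 1 by DESeq2), with 6.13% of all genes called (3.49% fell). SSX1 was the DESeq2 call, at a log2 change of -1.11 (adjusted p = 0.044). In KO cells 3 of 32 rose (SPANXC, CTAGE1 and SSX2IP). That is 9.38%, below the 13.2% of all genes that rose, and 30.4% of all genes were called in either direction. SPANXC had 18 counts over the 6 BMN libraries of KO cells, from 0 to 0.312 CPM, against 0 counts in KO controls (adjusted p = 0.042), and a single BMN library had none, so the groups overlapped. Its call was lost without any one of KO BMN day 5 replicate 1, KO BMN day 16 replicate 1, KO BMN day 26 replicate 1, KO control replicate 1 or KO control replicate 2. It was also lost with no low-count filter (adjusted p = 0.06). The SPANX sum in KO cells was 2.18 times (1.505 to 3.22) that of KO controls at day 5 of BMN, 1.69 times (1.15 to 2.53) at day 16 and 1.94 times (1.33 to 2.87) at day 26, from a control level of 42 counts in the pair of libraries. SSX was lower than in controls at day 26 of BMN in both lines, on few counts. The SSX sum was 0.284 and 0 CPM in BMN-treated KO cells at that day, against 0.432 and 0.716 CPM in KO controls, a ratio of 0.256 (0.0845 to 0.655). In WT cells it was 0.276 and 0.362 CPM under BMN, against 0.504 and 1.24 CPM in controls, a ratio of 0.369 (0.174 to 0.730), and the groups did not overlap in either line.

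Against untreated cells, the combination at day 5 was followed by a rise of 25 of the 32 tested members in KO cells (27.1% of all genes rose) and of 24 in WT cells (21.2%, with 39.5% changed in either direction), selected through treated libraries as above. The combination was then compared with DAC alone at the same days, which asks what BMN added where the families were already on. The sum over the 77 genes in KO cells was 133.3 and 132.3 CPM at day 5 under DAC+BMN, against 112.9 and 104.9 CPM under DAC. At day 16 it was 97.0 and 97.8 CPM under DAC+BMN, against 95.4 and 92.7 CPM under DAC. At day 26 it was 37.6 and 36.9 CPM under DAC+BMN, against 76.3 and 75.5 CPM under DAC. In KO cells the combination was thus above DAC at days 5 and 16 and below it at day 26, with no overlap of libraries at any of the 3 days. SPANX made up 72.76% of the KO sum under DAC+BMN at day 5 and 55.75% at day 16. At day 16 the mean sums of SPANX (54.29 against 43.72 CPM), SSX (21.65 against 19.36 CPM) and CT45A were above those under DAC. Those of GAGE, PAGE, XAGE, CTAG and CSAG were below. In WT cells the sums were 94.1 and 98.3 CPM under DAC+BMN at day 5, against 95.7 and 93.0 CPM under DAC, which overlap. At day 16 they were 135.1 and 120.1 CPM under DAC+BMN, against 100.7 and 102.8 CPM under DAC. At day 26 they were 110.8 and 111.4 CPM under DAC+BMN, against 98.5 and 103.8 CPM under DAC, so that in WT cells the combination was above DAC at days 16 and 26.

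Counted over the 3 days together, 9 of 32 tested members (28.1%) were lower and none higher under the combination in KO cells, where 11.8% of all genes fell. The 9 were SSX1, SSX3, GAGE1, GAGE2A, PAGE1, PAGE5, CTAG2, CSAG1 and CSAG3, led by CSAG3 (log2 -1.56), PAGE1 (-1.46), GAGE1 (-1.44) and GAGE2A (-1.18), and each kept its call on leaving out any 1 library. In WT cells 4 of 32 (12.5%) were higher and none lower, where 10.2% of all genes rose and 23.1% were called in either direction. That count is near the background and says nothing particular about these families. SSX1 was higher in WT cells by 0.45 ± 0.09 (adjusted p = 0.00012) whichever library was left out. SPANXB1 (0.19), SPANXC (0.52) and SSX6P (0.79) were called with adjusted p of 0.037, 0.025 and 0.012, and the calls of SPANXB1 and SPANXC were each lost without any 1 of 6 libraries (adjusted p = 0.061 to 0.12 and 0.051 to 0.12) and that of SSX6P without WT DAC day 26 replicate 1 (0.051) or WT DAC+BMN day 5 replicate 2 (0.055). By day in KO cells, 3 of 32 rose and 5 fell at day 5, which is 25% called, where 22.3% of all genes were called. At day 16, 3 fell (9.38%), where 8.7% of all genes fell and 16.3% were called. The counts at these 2 days are near the background and say nothing particular about these families. At day 26, 12 of 32 (37.5%) fell, where 11.3% of all genes fell. The count at day 26 was 7 without KO DAC+BMN day 26 replicate 2. By day in WT cells, edgeR's quasi-likelihood test called 0 of 32 at day 5 (12.3% of all genes called; 1 below an unadjusted p of 0.05, 0 by DESeq2), 1 at day 16 (12.2%) and 4 at day 26 (12.2%). The comparisons by single day were added after the comparison over all days had been seen.

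At day 5 in KO cells the SPANX and GAGE sums moved in opposite directions. The SPANX sum was 96.5 and 96.7 CPM under DAC+BMN, against 57.5 and 54.0 CPM under DAC, a ratio of 1.74 (1.64 to 1.83). SPANXB1 had 73.6 and 76.6 CPM under DAC+BMN, against 48.2 and 43.7 CPM under DAC (log2 0.71 ± 0.11, adjusted p = 1.3e-05). SPANXC (log2 1.28 ± 0.26, adjusted p = 0.00044) and SPANXD (log2 1.30 ± 0.32, adjusted p = 0.0033) also rose, and these 3 were the members that rose. GAGE was low under the combination at that day: the GAGE sum was 0.608 and 1.34 CPM under DAC+BMN, against 3.74 and 2.72 CPM under DAC, a ratio of 0.302 (0.201 to 0.443). GAGE2A had 0.221 and 0.669 CPM under DAC+BMN, against 2.64 and 1.55 CPM under DAC (log2 -2.22 ± 0.44, adjusted p = 0.00047). PAGE1 had 0.774 and 0.781 CPM under DAC+BMN, against 2.91 and 3.52 CPM under DAC (log2 -2.04 ± 0.30, adjusted p = 6.9e-06). CTAG2 had 2.05 and 2.40 CPM under DAC+BMN, against 4.56 and 4.53 CPM under DAC (log2 -1.03 ± 0.28, adjusted p = 0.0075), and without KO DAC+BMN day 5 replicate 1 its adjusted p was 0.077. PAGE5, a neighbour of the PAGE2 genes, had 3.87 and 4.41 CPM under DAC+BMN, against 4.62 and 3.95 CPM under DAC, so its groups overlapped where those of PAGE1 did not. CSAG3 (log2 -2.25) and SSX3 (log2 -0.95) completed the 5 that fell, both with adjusted p = 0.016, and both calls were lost on leaving out 1 library: for CSAG3 without KO DAC+BMN day 5 replicate 1 (0.2) or KO DAC day 5 replicate 1 (0.16), for SSX3 without KO DAC day 5 replicate 2 (0.11) or KO DAC+BMN day 5 replicate 2 (0.14).

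At day 16 in KO cells the GAGE difference had narrowed. GAGE2A had 4.91 and 3.64 CPM under DAC+BMN, against 5.32 and 5.51 CPM under DAC, and did not pass the test. CTAG2 had 1.69 and 1.08 CPM under DAC+BMN, against 4.005 and 3.21 CPM under DAC (log2 -1.37 ± 0.30, adjusted p = 0.0022), and without KO DAC+BMN day 16 replicate 2 its adjusted p was 0.059. PAGE1 had 2.73 and 2.33 CPM under DAC+BMN, against 4.72 and 4.13 CPM under DAC (log2 -0.80 ± 0.23, adjusted p = 0.017), and PAGE5 had 2.62 and 2.90 CPM, against 4.61 and 3.93 CPM (log2 -0.63 ± 0.20, adjusted p = 0.033). The PAGE1 call was lost without KO DAC+BMN day 16 replicate 1 (adjusted p = 0.054), replicate 2 (0.14) or KO DAC day 16 replicate 1 (0.11), and the PAGE5 call was lost without any 1 of its 4 libraries (adjusted p = 0.057 to 0.19), with no low-count filter (0.13) and in DESeq2 (0.06).

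At day 26 in KO cells 7 families had a lower sum under the combination, with no overlap of libraries. The XAGE libraries overlapped (ratio 0.605, 0.268 to 1.31), and CT47 had 0 counts under the combination and 2 under DAC. SPANX was at 19.8 and 20.7 CPM under DAC+BMN, against 35.1 and 34.9 CPM under DAC, a ratio of 0.579 (0.530 to 0.632). SSX was at 6.64 and 6.07 CPM under DAC+BMN, against 13.3 and 14.5 CPM under DAC, a ratio of 0.459 (0.394 to 0.534). The ratios were 0.388 for GAGE (0.315 to 0.477), 0.405 for PAGE, 0.371 for CSAG, 0.455 for CTAG and 0.221 for CT45A (0.0744 to 0.549). SPANXB1, which had been higher under the combination at day 5, had 14.6 and 15.3 CPM under DAC+BMN at day 26, against 27.4 and 26.6 CPM under DAC (log2 -0.85 ± 0.13, adjusted p = 4.2e-06). SSX1 had 4.62 and 4.64 CPM under DAC+BMN, against 8.69 and 8.87 CPM under DAC (log2 -0.92 ± 0.18, adjusted p = 0.00021). PAGE1 had 1.18 and 1.17 CPM under DAC+BMN, against 3.40 and 3.45 CPM under DAC (log2 -1.54 ± 0.27, adjusted p = 7.7e-05). For each of these genes both combination libraries lay below both DAC libraries. PAGE5 (log2 -1.34 ± 0.23, adjusted p = 7.8e-05), CSAG1 (-1.32 ± 0.26, adjusted p = 0.00034), GAGE1 (-2.82 ± 0.49, adjusted p = 0.00012) and SSX6P, a pseudogene (-2.12 ± 0.44, adjusted p = 0.00054), fell as well. CT45A1 (log2 -3.35, adjusted p = 0.013), CSAG3 (-1.99, adjusted p = 0.009), SSX3 (-1.30, adjusted p = 0.014), CTAG2 (-1.13, adjusted p = 0.026) and GAGE2A (-0.99, adjusted p = 0.0077) made up the 12. Each of these last 5 lost its call without KO DAC+BMN day 26 replicate 2 (adjusted p = 0.13, 0.087, 0.15, 0.13 and 0.16 in that order), and that of CT45A1 was also lost in DESeq2 (0.072). The other libraries whose omission ended a call were KO DAC day 26 replicate 2 for SSX3 (0.27) and GAGE2A (0.15), and KO DAC day 26 replicate 1 (0.26) and KO DAC+BMN day 26 replicate 1 (0.12) for CTAG2.

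In WT cells the share of members called by day was below or near that of all genes, and the family sums are described at the same days. The SSX sum was 35.7 and 30.4 CPM under DAC+BMN at day 16 in WT cells, against 20.1 and 21.1 CPM under DAC, a ratio of 1.60 (1.47 to 1.75). At day 26 it was 22.1 and 22.3 CPM under DAC+BMN, against 13.7 and 15.2 CPM under DAC, a ratio of 1.53 (1.39 to 1.70). SSX1 had 26.01 and 21.9 CPM under DAC+BMN at day 16, against 14.9 and 15.5 CPM under DAC (log2 0.66 ± 0.15, adjusted p = 0.0015), and without WT DAC+BMN day 16 replicate 1 the difference was 0.52 with adjusted p = 0.071. SSX1 had 17.0 and 16.9 CPM under DAC+BMN at day 26, against 11.2 and 12.1 CPM under DAC (log2 0.54 ± 0.15, adjusted p = 0.014); without WT DAC day 26 replicate 1, WT DAC+BMN day 26 replicate 1 or WT DAC+BMN day 26 replicate 2 its adjusted p was 0.086, 0.058 and 0.058. SPANX ratios of combination over DAC were 1.09, 1.25 and 1.15 at the 3 days in WT cells, and GAGE ratios were 0.838, 1.13 and 0.858. SSX6P rose, and GAGE1 and SPANXN3 fell, at day 26 in WT cells, with log2 differences of 1.20, -1.21 and -2.32 and adjusted p of 0.041, 0.032 and 0.042. When only the libraries compared were fitted, these calls were lost (adjusted p = 0.21, 0.082 and 0.093 in that order). The SSX1 call at day 26 was lost in that fit as well (0.11). DESeq2 gave an adjusted p of 0.052 for SSX6P and 0.057 for GAGE1, and a lane term gave 0.062 for SSX6P. The GAGE1 and SPANXN3 calls were lost without any 1 of their 4 libraries (adjusted p = 0.059 to 0.27 and 0.065 to 0.28), and the SSX6P call without WT DAC day 26 replicate 1 (0.35), WT DAC+BMN day 26 replicate 1 (0.12) or WT DAC+BMN day 26 replicate 2 (0.13).

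**Figure D4:**
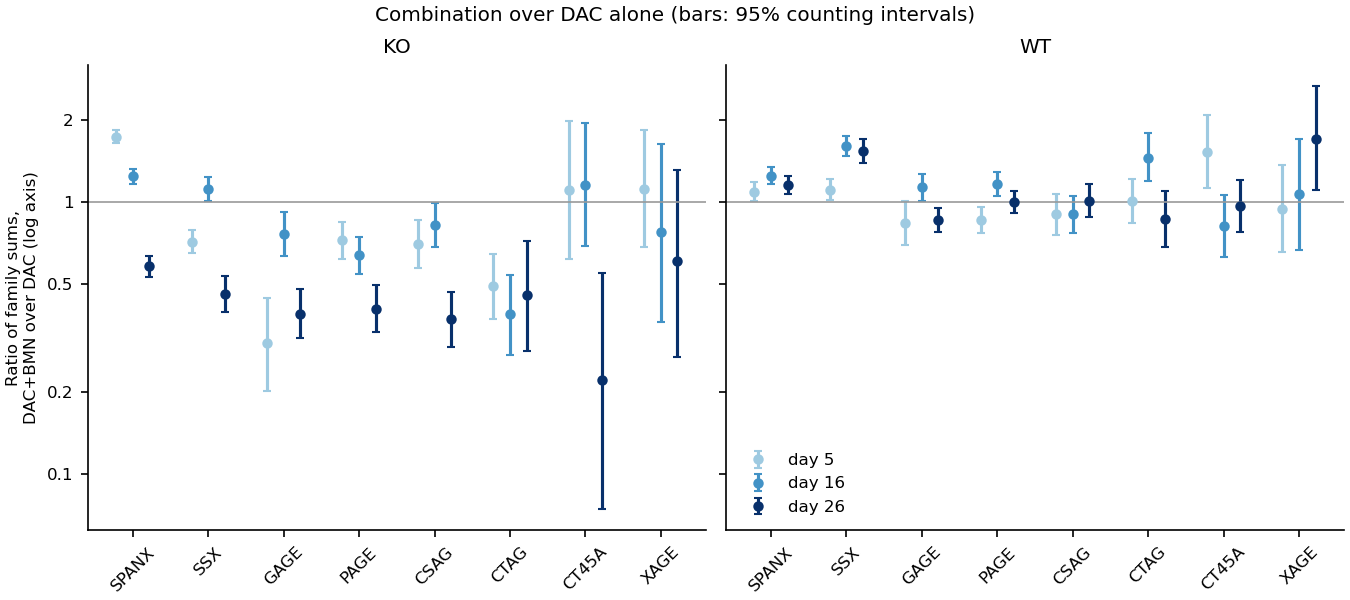
Ratio of each family sum under DAC+BMN to that under DAC (y axis, log scale, grey line at 1) at days 5, 16 and 26 in KO cells (left) and WT cells (right). Points are ratios of counts summed over 2 libraries each, scaled by the summed TMM-adjusted library totals, and bars are 95% counting intervals. In KO cells the day 26 ratios of SPANX, SSX, GAGE, PAGE, CSAG and CTAG lie between 0.371 and 0.579, and in WT cells the SSX ratios at days 16 and 26 are 1.60 and 1.53.

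The difference between KO and WT cells in the effect of adding BMN to DAC was tested as an interaction at each day. At day 5 it passed for 3 of 32 members, at day 16 for 2 and at day 26 for 8 (25%, all lower in KO cells), where 6.85%, 6.65% and 21.1% of all genes passed in either direction and 9.51% passed as lower in KO cells at day 26. The smallest adjusted p at day 26 were those of SSX1 (log2 -1.46 ± 0.23, adjusted p = 1.7e-05) and SPANXB1 (-1.07 ± 0.17, adjusted p = 1.8e-05), neither of which lost the call on leaving out any library. At day 5 SPANXB1 differed the other way (0.64 ± 0.17, adjusted p = 0.014), and that call was lost without WT DAC day 5 replicate 2 (0.13), WT DAC+BMN day 5 replicate 1 (0.12), KO DAC day 5 replicate 2 (0.075) or KO DAC+BMN day 5 replicate 2 (0.077). Under the combination, the SPANX sum in KO cells was 2.97 times that in WT cells at day 5 (2.78 to 3.17), 1.34 times at day 16 and 0.567 times at day 26 (0.520 to 0.617). The SSX sum in KO cells was 0.734, 0.655 and 0.286 times that in WT cells at those days, and the GAGE sum was 0.174, 0.361 and 0.207 times.

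Of the 14 genes that share only a prefix, 5 were tested, and CTAGE1 was the one that rose under DAC. SSX2IP, which encodes a protein of the centrosome that binds SSX2, was at 25.3 to 47.3 CPM in KO libraries and 26.4 to 49.9 CPM in WT libraries under every treatment, and it did not pass the test in any comparison of DAC with control. It rose in KO cells under BMN (log2 0.52, adjusted p = 0.00048). CTAGE1, an intronless gene on chromosome 18, had 1.76 and 2.40 CPM in KO cells at day 5 of DAC, against 0.216 and 0.386 CPM in KO controls (log2 2.77 ± 0.57, adjusted p = 0.00021). In WT cells CTAGE1 had 1.66 and 1.95 CPM under DAC, against 1.06 and 0.207 CPM in controls (log2 1.49 ± 0.49, adjusted p = 0.021). That call was lost without WT control replicate 2 or WT DAC day 5 replicate 2, and when only the libraries compared were fitted (adjusted p = 0.1). CTAGE1 also rose under BMN in KO cells (log2 1.53, adjusted p = 0.035), a call lost on leaving out any of 5 libraries (adjusted p = 0.079 to 0.27). CTAGE11P, a pseudogene, had 0.216 to 1.04 CPM in KO libraries and 0.313 to 2.31 CPM in WT libraries, and did not pass the test for DAC in either line.

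Other germline genes were set beside the families by counts. Of 26 X-linked cancer-testis genes outside the families, among them the MAGEA genes, 20 were tested, and 17 rose in KO cells and 20 in WT cells at day 5 of DAC, where 19.5% and 15.6% of all genes rose. Under the combination against DAC over days, 16 of the 20 fell in KO cells, where 11.8% of all genes fell (median log2 -0.80, against 0 over all genes tested), and in WT cells 1 rose and 6 fell, where 10.2% of all genes rose and 12.8% fell. GCNA, a germ cell nuclear antigen, had 65.3 and 63.3 CPM in KO cells at day 5 of DAC, against 0.971 and 0.551 CPM in KO controls, and 2.73 and 3.56 CPM at day 26. Not all of these genes fell that far. PNMA5 had 63.95 and 63.68 CPM at day 5 of DAC in KO cells and 13.89 and 13.33 CPM at day 26. MAGEA6 had 16.37 and 17.6 CPM at day 5 in KO cells and 12.14 and 12.8 CPM at day 26. In WT cells MAGEA6 had 17.69 and 21.96 CPM at day 5 and 26.02 and 27.59 CPM at day 26. Of 20 autosomal germline genes, 14 were tested, and 12 rose in KO cells and 13 in WT cells at day 5 of DAC; 10 of the 14 fell in KO cells under the combination against DAC over days, beside the same 11.8% of all genes. The filter admits these genes, too, through treated libraries. Of 20 genes of the DNA methylation machinery, 19 were tested, and at day 5 of DAC 3 rose and 9 fell in KO cells, where 19.5% of all genes rose and 16% fell, and 4 rose and 6 fell in WT cells, where 15.6% rose and 12.2% fell. DNMT1, the maintenance methyltransferase that DAC traps, rose by 0.18 on the log2 scale in KO cells (adjusted p = 0.026) and by 0.21 in WT cells (adjusted p = 0.014) at day 5 of DAC.

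Promoter CG content was set beside the level at day 5 of DAC for the 22 family genes with a window and at least 50% unique transcript windows. Spearman's rho between the CG count and CPM per kb, averaged over both lines, was 0.43, given as a description of these 22 genes, which share ancestry within families, without a p. SPANXB1 and SSX1, the most highly expressed, had 9 and 5 CG, below or far below the 16 CG of CSAG1. SPANXN2 and SPANXN5, with 1 CG each, were at 0 and 0.119 CPM per kb. PAGE4 with 4 CG was at 0.00518 CPM per kb, and SPANXN3, also with 4 CG, at 0.847.

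**Figure D5:**
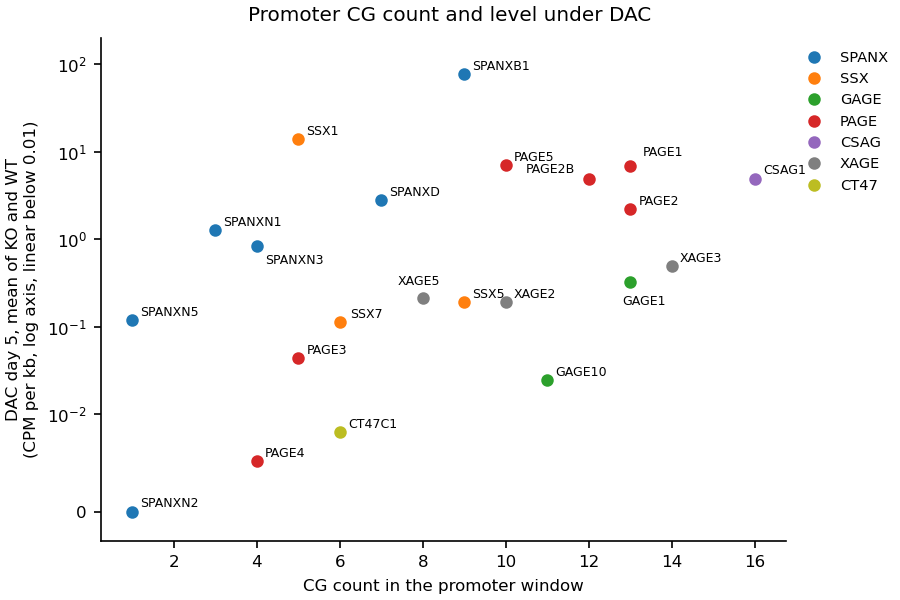
CG count in the 300-base promoter window (x axis) against the level at day 5 of DAC, as the mean CPM per kb of exon over KO and WT cells (y axis, log scale, linear below 0.01), for 22 family genes with at least 50% unique transcript windows, coloured by family. SPANXB1 (9 CG) and SSX1 (5 CG) are the 2 highest, and SPANXN2 (1 CG) is at 0.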

How the data were processed

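The authors deposited 1 table of raw counts for 60664 Ensembl genes and 40 libraries. Per the file headers, the counts were made with featureCounts 1.5.0-p1 (exons summed by gene, Ensembl 104 on GRCh38, forward strand setting 1, primary alignments with mapping quality of at least 20, marked duplicates ignored, paired reads). Per the labels' protocols, libraries came from 1 ug of total RNA with the KAPA RNA HyperPrep kit, and the submitters' processing notes name FastQC, Trimmomatic and Partek. The median antisense density was 0.01636 of sense over 787 pairs of overlapping genes, so strand was resolved. Gene symbols, exon lengths and coordinates come from the table and its annotation, and unique windows of 100 bases from GENCODE release 29 transcripts.

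Counts were analysed with edgeR 4.0.16 in R 4.3.3: filterByExpr (a CPM above 0.515 in at least 2 libraries), TMM scaling (factors 0.9427 to 1.052), 1 mean per group over all 40 libraries, glmQLFit and glmQLFTest, and Benjamini-Hochberg adjustment over 22527 genes, with 20 residual degrees of freedom and a biological coefficient of variation of 0.07178. Alternatives were DESeq2 1.42.0, RLE scaling, no low-count filter, a fit of only the libraries compared, a replicate block, leaving out each library and, chosen after seeing the data, a lane term. The comparisons of DAC+BMN with DAC at single days were added after seeing the data. The model was tested on simulated counts of genes already expressed in WT controls, which does not cover members at or near 0 counts in controls. Family sums are given with no test, and ratios of summed counts have 95% exact binomial (Clopper-Pearson) counting intervals. A fold against libraries all at 0 counts is a lower bound that takes 3 counts per library as the floor. No replicate pair agreed within sampling noise (chi-square per degree of freedom 1.655 to 19.637). The pair furthest apart was the WT controls (19.637), which serve every WT comparison with control, followed by WT DAC day 26 (17.092). The relative scale has a limit: the median gene moved by 0.114 on the log2 scale for DAC day 26 against control in KO cells, and by less than 0.1 in the other comparisons named here.

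Members follow from the symbol rule. Values by library are given for the 2 members of each family with the highest mean CPM among those tested, and up to 4 members with the largest changes are named in a comparison. Others named, such as PAGE3, PAGE4, XAGE2 and SPANXN2, were chosen after their values were seen. The members and gene lists were chosen with earlier results of these data known.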

Additional observations from a re-analysis of the deposited data

Results flagged for a closer look

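The results below were singled out because the effect of adding BMN to DAC differed between KO and WT cells. The difference itself was tested (edgeR's quasi-likelihood test of the interaction at each day, adjusted over all genes). Each value is the log2 change from DAC to DAC+BMN in KO cells minus that in WT cells. A negative value thus means a stronger fall or a weaker rise in KO cells, and a positive value the reverse. All values are log2 differences with their standard errors. Each rests on 8 libraries, 2 in each of 4 groups.

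At day 5 the difference was -2.10 ± 0.53 for GAGE2A (adjusted p = 0.013), -1.80 ± 0.37 for PAGE1 (adjusted p = 0.0018) and 0.64 ± 0.17 for SPANXB1 (adjusted p = 0.014). For PAGE1 the call held without each of the libraries in turn. For GAGE2A it was lost without WT DAC+BMN day 5 replicate 2 (adjusted p = 0.061), KO DAC+BMN day 5 replicate 1 (0.14) or KO DAC day 5 replicate 1 (0.13). GAGE2A had 0.221 and 0.669 CPM in KO cells under DAC+BMN at that day, against 2.64 and 1.55 CPM under DAC, and 3.01 and 4.16 CPM in WT cells under DAC+BMN, against 3.93 and 3.85 CPM under DAC. The SPANXB1 call at day 5 was lost without any 1 of 4 libraries, namely WT DAC replicate 2 (adjusted p = 0.13), WT DAC+BMN replicate 1 (0.12), KO DAC replicate 2 (0.075) and KO DAC+BMN replicate 2 (0.077).

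At day 16 the difference was -1.92 ± 0.39 for CTAG2 (adjusted p = 0.0024) and -0.99 ± 0.27 for PAGE5 (adjusted p = 0.022). CTAG2 had 1.69 and 1.08 CPM in KO cells under DAC+BMN, against 4.005 and 3.21 CPM under DAC, and 6.74 and 4.97 CPM in WT cells under DAC+BMN, against 3.89 and 4.12 CPM under DAC. The PAGE5 call was lost without any 1 of 5 libraries, namely WT DAC replicate 1 (0.095), WT DAC+BMN replicate 1 (0.068) or 2 (0.051), KO DAC replicate 1 (0.1) and KO DAC+BMN replicate 1 (0.1), and with no low-count filter (0.092).

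At day 26 the difference was -3.31 ± 0.59 for SSX6P (adjusted p = 9.5e-05), -3.31 ± 1.06 for CT45A1 (adjusted p = 0.027) and -1.89 ± 0.52 for SSX3 (adjusted p = 0.0096). It was -1.46 ± 0.23 for SSX1 (adjusted p = 1.7e-05), -1.44 ± 0.33 for PAGE1 (adjusted p = 0.0016) and -1.40 ± 0.34 for CSAG1 (adjusted p = 0.0032). It was -1.34 ± 0.29 for PAGE5 (adjusted p = 0.0011) and -1.07 ± 0.17 for SPANXB1 (adjusted p = 1.8e-05). The calls of SSX6P, SSX1, PAGE1, CSAG1, PAGE5 and SPANXB1 held without each library in turn. The SSX3 call was lost without KO DAC day 26 replicate 2 (adjusted p = 0.097) or KO DAC+BMN day 26 replicate 2 (0.059), and the CT45A1 call without WT DAC replicate 2 (0.057), WT DAC+BMN replicate 2 (0.074), KO DAC replicate 1 (0.065) or 2 (0.066) or KO DAC+BMN replicate 2 (0.16), in DESeq2 (0.1) and when only the libraries compared were fitted (0.056). SPANXB1 passed the test at both days, with a positive difference at day 5 and a negative one at day 26.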

How the results depend on the processing

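Of 28 counts of members called, 17 stayed within 1.5 times under another scaling (RLE), no low-count filter, DESeq2, a fit of only the libraries compared, a replicate block and a lane term (the last chosen after seeing the data), and 15 did so leaving out each library. No low-count filter gave 1 member for untreated KO against WT, 1 for DAC+BMN against DAC at day 5 in WT cells and 1 for the day 16 interaction. Fitting only the libraries compared gave 1 for untreated KO against WT, 5 for DAC day 16 against day 5 and 1 for day 26 against day 16 in WT cells, 16 for DAC+BMN day 5 against control in KO cells, 1, 4 and 0 for DAC+BMN against DAC at days 5, 16 and 26 in WT cells, 5 at day 16 in KO cells, and 7 and 4 for the day 5 and day 16 interactions. DESeq2 gave 1 for BMN in WT cells and 2 and 1 for DAC+BMN against DAC at days 16 and 26 in WT cells. Leaving out 1 library gave 1 to 4 for untreated KO against WT; 1 each time for DAC day 16 against day 5 and 0 to 2 for day 26 against day 16 in WT cells and 1 to 2 for DAC day 16 against day 5 in KO cells; 0 to 3 and 1 to 4 for BMN in WT and KO cells; 1 to 5 for DAC+BMN against DAC over days in WT cells; 0 to 1 for the DAC response, KO minus WT; 0 to 2 and 0 to 2 for DAC+BMN against DAC at days 16 and 26 in WT cells, 0 to 3 and 7 to 12 at those days in KO cells, and 1 to 2 for the day 16 interaction. DNMT3B, DAC day 26 against control in WT cells, changed sign to -0.003 without WT control replicate 1 and was 0.414 without replicate 2. The cause of these shifts was not tested. For family sums, leaving out 1 library leaves the other of its pair, which always lies within the spread of the 2. All 360 such values therefore stayed within it by construction, and they do not test the sums. With RLE 8 family sums moved beyond the spread of their libraries and 172 did not. With plain library totals 19 moved and 161 did not, and 39 moved and 121 did not when only the tested members were summed.

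Replicate numbers did not pair the libraries: over 190 pairs of groups the correlation of deviations was -0.57 to 0.718 (median -0.00215), with 47 over 0.1 and 46 under -0.1. Some groups thus shared deviations that do not follow the replicate number, and a replicate block does not remove these. Their source was not tested. With the replicate block no count of members moved by more than 1.5 times; the block gave 2 in place of 3 for DAC day 26 against day 16 in WT cells and 9 in place of 8 for the day 26 interaction. Depth limits members with few counts: 46 of 77 family genes had at most 9 counts in every library.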

Other observations

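DNMT3A, a de novo DNA methyltransferase, was lower in untreated KO cells, at 8.2 to 8.8 CPM, than in untreated WT cells, at 18.3 to 19.5 CPM. DNMT1 was lower under DAC+BMN than under DAC at day 5 in KO cells (log2 -0.41, adjusted p = 1.6e-05, edgeR's quasi-likelihood test).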
